A study of Arabidopsis thaliana with 6 samples.

Results

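The 10 genes described here encode the core enzymes and the exporter that turn leaf starch into sugars for the cytosol. They were chosen by locus identifier, with earlier results of these data known. All 10 are present among the 27655 genes of the deposited expression table. They are SEX1 (AT1G10760), SEX4 (AT3G52180), BAM1 (AT3G23920), BAM3 (AT4G17090), BAM4 (AT5G55700), AMY3 (AT1G69830), ISA3 (AT4G09020), DPE1 (AT5G64860), MEX1 (AT5G17520) and DPE2 (AT2G40840). The study sequenced RNA of whole Col-0 seedlings of Arabidopsis thaliana, aged 14 days and grown on agar plates in long days. There were 3 libraries from seedlings placed under distilled water for 1 h and 3 libraries from seedlings kept in air for 1 h, with the air group as the control. Neither group carries a transgene or mutation in its labels, and the labels do not say whether submergence was in light or at what hour the seedlings were harvested. The replicates are called biological, but their separate origin is not described, so the p-values rest on the variation among these libraries only.

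In leaves, starch made by day is stored as insoluble granules in the chloroplast and is broken down at night. A dikinase adds phosphate to glucan chains at the granule surface, which loosens their packing, and a phosphatase takes the phosphate off again. Beta-amylases then release maltose from the chain ends, a debranching enzyme removes short branches, and an alpha-amylase can cut within chains. Short leftover chains are reworked by a plastid transglucosylase, maltose leaves through an exporter in the envelope, and a cytosolic transglucosylase uses it. Transcripts of many of these genes follow a daily rhythm, although starch itself can be degraded without a matching change in transcript.

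Library totals ran from 20041244 to 29673924 counts in the submerged group and from 20287275 to 25900177 in air. Both leaf and root RNA were present. The 6 leaf photosynthesis markers summed to 13262 to 15136 CPM under water and 15719 to 16974 CPM in air. None of the 15 root markers was at 0 in any library. Many were low, with 1 in submerged replicate 1 and up to 8 in air replicate 3 at or under 1 CPM. CPM here means counts scaled to a common library total, adjusted by TMM, a method that sets the typical gene to the same level in each library. The root markers summed to 79.1 to 86.8 CPM under water and 55.4 to 96.1 CPM in air. Air replicate 2 was the highest of all 6 libraries in that sum and air replicate 3 the lowest. In whole seedlings, fewer cells of a type and less RNA per cell cannot be told apart.

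After 1 h under water, the transcripts of the pathway moved in opposite directions. BAM1 rose by a factor of 2.27, while 7 genes fell, among them DPE1, ISA3, SEX4 and SEX1. BAM4 passed the test with a small rise, and AMY3 did not pass it. A gene was called when the Benjamini-Hochberg adjusted p of edgeR's quasi-likelihood test over 19495 genes was under 0.05. All 10 genes passed the filter on low counts. Of the 10, 9 were called, against a background of 55.0% of all tested genes called in either direction. The calls were 2 higher, against a background of 28.8%, and 7 lower, against 26.1%. With upper quartile scaling the background was 22.9% higher and 34.9% lower. With a change of at least 1.5-fold also required, 1 was higher, where the background was 16.6%, and 6 were lower, where it was 12.6%. The median log2 fold change was -0.62 over the 10 genes and 0.0053 over all tested genes. Since the 10 were chosen with earlier results of these data known, these counts are descriptive only.

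**Figure D1:**
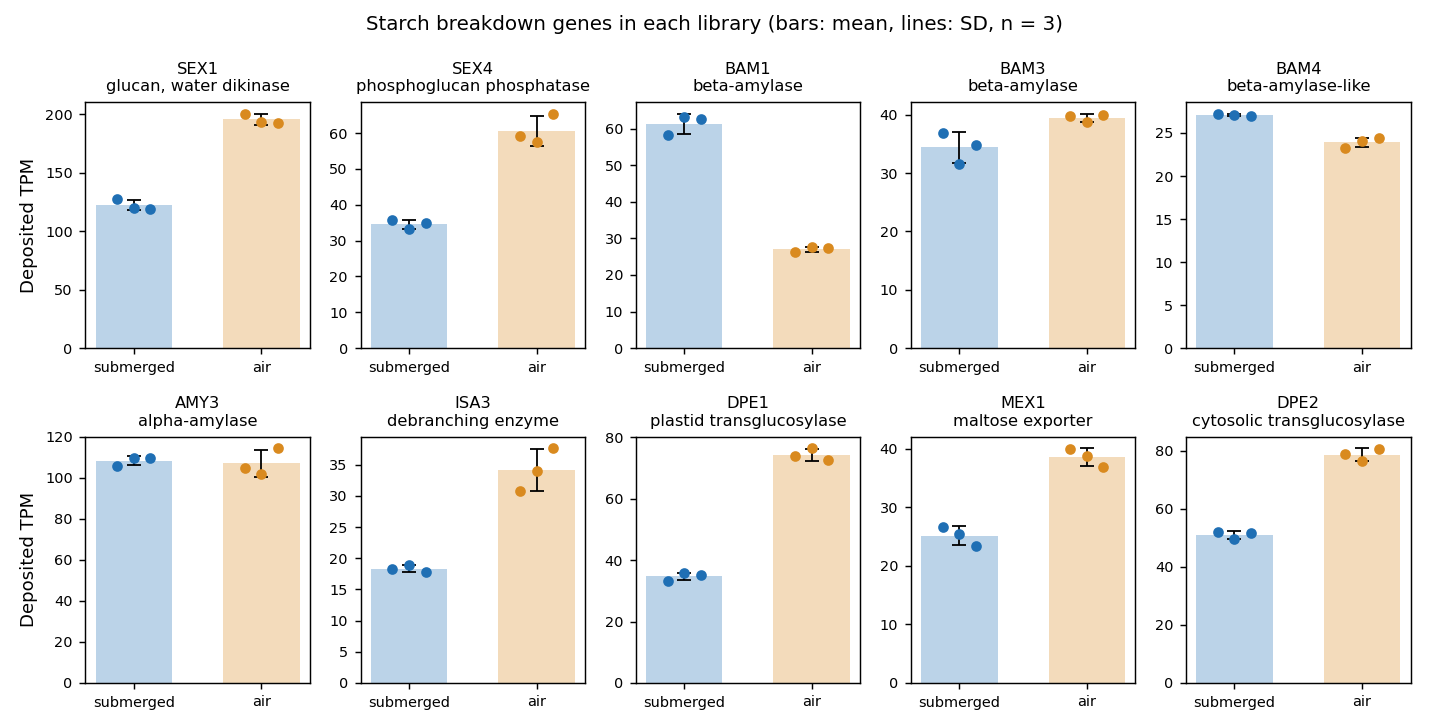
Deposited TPM (a level adjusted for transcript length and library total) of each starch breakdown gene in the 3 submerged and 3 air libraries; points are libraries, bars are means and lines are SD. BAM1 lay between 58.2 and 63.3 TPM under water and between 26.2 and 27.5 TPM in air, while SEX1 lay between 119 and 127 TPM under water and between 192 and 201 TPM in air.

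The genes that control phosphate on starch were both lower. SEX1 encodes the glucan, water dikinase that begins granule breakdown, and plants that lack it accumulate starch. It had 385, 365 and 375 CPM in submerged replicates 1 to 3 and 623, 582 and 599 CPM in air replicates 1 to 3. The groups were far apart relative to their spread, and SEX1 fell by 0.68 on the log2 scale (SE 0.05, adjusted p = 2.41e-07 by edgeR). SEX4, which encodes the phosphatase that removes the phosphate, had 42.5, 39.9 and 43.1 CPM under water and 72.4, 68.3 and 80.4 CPM in air. Every submerged library was below every air library, with air replicate 3 the highest. SEX4 fell by 0.82 on the log2 scale (SE 0.07, adjusted p = 5.69e-07 by edgeR).

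The 3 genes of the beta-amylase family did not move together. BAM1 encodes a plastid beta-amylase known for roles in guard cells and under osmotic stress. Its transcripts stood at 87.9, 96.3 and 98.2 CPM under water and at 40.6, 41.4 and 42.4 CPM in air. The lowest submerged library was above the highest air library by a wide margin, and the log2 fold change was 1.18 ± 0.06 (SE, adjusted p = 5.11e-09 by edgeR). Of all tested genes, 7.95% had a higher log2 fold change than BAM1.

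BAM3, the main beta-amylase of leaf mesophyll at night, had 46.5, 40.1 and 45.6 CPM under water and 51.6, 48.6 and 51.9 CPM in air. The groups did not overlap, but the gap between them was narrow, and BAM3 fell by 0.20 on the log2 scale (SE 0.07, adjusted p = 0.0274 by edgeR). The call was lost without submerged replicate 2 (-0.13, adjusted p = 0.124), without air replicate 1 (-0.19, adjusted p = 0.0809) and without air replicate 3 (-0.19, adjusted p = 0.0786), all by edgeR.

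BAM4, a beta-amylase-like protein without catalytic activity that is needed for normal starch breakdown, had 33.0, 33.1 and 33.9 CPM under water and 28.9, 29.0 and 30.4 CPM in air. Replicates were close to each other, with a coefficient of variation of 1.49% in submerged libraries and 2.91% in air libraries. BAM4 was called higher with a log2 fold change of 0.18 ± 0.07 (SE, adjusted p = 0.0362 by edgeR), and the authors' deposited table gives it a false discovery rate of 0.0525. The call was lost under 11 of 16 alternatives, including upper quartile scaling, where the log2 fold change was 0.06 (adjusted p = 0.474 by edgeR). Of these 11, 5 were the fits without any 1 library other than air replicate 3, with log2 fold changes from 0.17 to 0.20.

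AMY3, the plastid alpha-amylase, had 198, 207 and 213 CPM under water and 202, 190 and 221 CPM in air. The ranges overlapped. The log2 fold change was 0.013 ± 0.064 (SE, adjusted p = 0.873 by edgeR), with a 95% interval from -0.12 to 0.15. Its sign changed with the scaling, to -0.11 with upper quartile factors and -0.027 with library size alone.

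The genes that act on branched and short chains both fell. ISA3 encodes the isoamylase that trims short branches during breakdown. It had 30.1, 31.4 and 30.5 CPM under water and 52.2, 55.7 and 63.9 CPM in air. The submerged libraries were nearly equal while the air libraries spread more widely, with a coefficient of variation of 2.09% under water and 10.5% in air. ISA3 fell by 0.90 on the log2 scale (SE 0.08, adjusted p = 5.82e-07 by edgeR). DPE1, the plastid disproportionating enzyme that reworks maltotriose, had 40.4, 43.6 and 44.4 CPM under water and 92.2, 92.3 and 90.6 CPM in air. It showed the largest fall of the 10 genes, by 1.10 on the log2 scale (SE 0.06, adjusted p = 5.86e-09 by edgeR). Of all tested genes, 4.75% had a lower log2 fold change.

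The genes of maltose export and use both fell. MEX1, the maltose transporter of the chloroplast envelope, had 28.1, 27.1 and 25.8 CPM under water and 43.4, 40.8 and 40.3 CPM in air, and it fell by 0.62 on the log2 scale (SE 0.07, adjusted p = 6.21e-06 by edgeR). DPE2, the cytosolic transglucosidase that takes up the exported maltose, had 107, 102 and 109 CPM under water and 166, 155 and 170 CPM in air. Neither gene showed overlap between the groups, and DPE2 fell by 0.63 on the log2 scale (SE 0.06, adjusted p = 1.07e-06 by edgeR).

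In all, the CPM ranges of the groups did not overlap for 9 of the 10 genes (background 62.1%), 2 higher under water (background 32.2%) and 7 lower (background 30.0%). The authors' deposited table, with its own test, calls 1 of the 10 higher (BAM1, background 24.5%) and the same 7 lower (background 22.0%). Within a group, the coefficient of variation of the members' CPM ran from 1.05% for DPE1 to 10.5% for ISA3, both in air. Air replicate 2 was lower than the mean of the other air libraries for 9 of the 10 genes, with a median log2 difference of -0.06. For 8 of the 10 genes submerged replicate 3 lay above the mean of the other libraries of its group, by a median of 0.07.

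**Figure D2:**
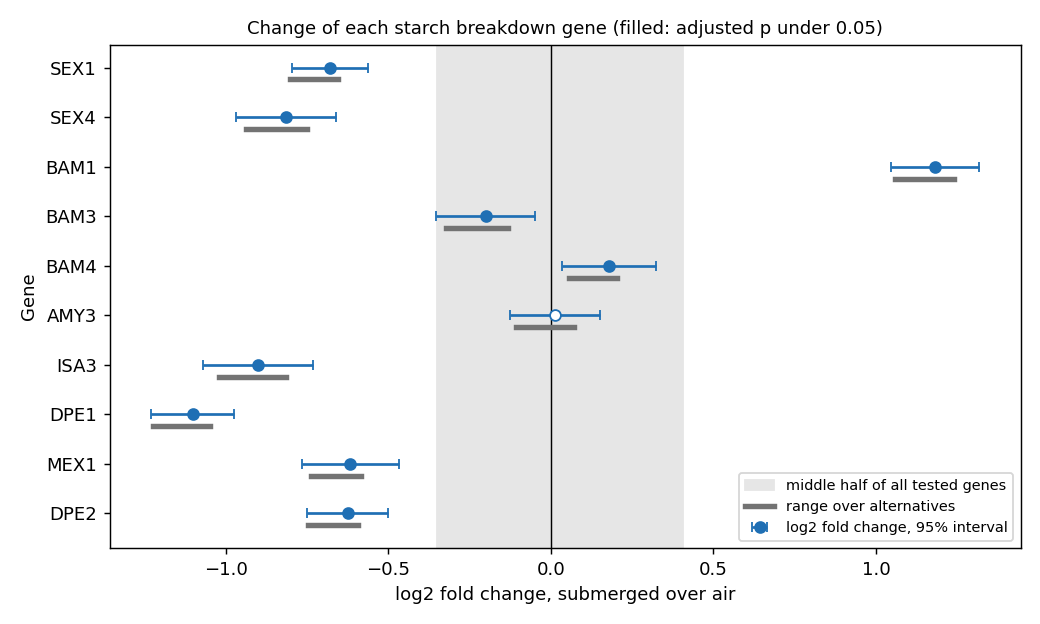
Log2 fold change of each gene, submerged over air, with its 95% interval derived from edgeR's F statistic (points, filled where adjusted p was under 0.05). Grey lines below give the range over alternative settings. BAM1 at 1.18 lies apart on the right, 6 genes lie between -1.10 and -0.62, and BAM3, BAM4 and AMY3 lie near 0 inside the band that holds the central part of all tested genes (-0.35 to 0.41).

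Levels were compared between genes on the deposited TPM, which adjusts for transcript length. The order of the genes differed between the groups, mainly through BAM1. It ranked 3 of 10 under water with 61.3 ± 2.76 TPM and 9 of 10 in air with 27.0 ± 0.719 TPM (SD, n = 3 each). SEX1 had the highest level in both groups, at 122 ± 4.52 TPM under water and 196 ± 4.38 TPM in air, followed by AMY3 at 108 ± 2.26 TPM under water and 107 ± 6.48 TPM in air. Under water DPE1, SEX4 and BAM3 could not be ordered, since neighbouring ranges overlapped between 31.5 and 36.9 TPM. In air the ranges of DPE2 and DPE1 overlapped, as did those of BAM3 and MEX1 and of MEX1 and ISA3. ISA3 was lowest under water with 18.3 ± 0.552 TPM, and BAM4 was lowest in air with 23.9 ± 0.577 TPM.

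The summed level of the 10 genes was 521, 514 and 516 TPM under water and 678, 669 and 692 TPM in air, so the mean sum was 23.9% lower in submerged seedlings. Without BAM1 the mean sum was 30.1% lower. The sum of BAM1, BAM3 and BAM4 was higher, at 122, 122 and 124 TPM under water and 89.3, 90.2 and 91.6 TPM in air. BAM1 accounted for that rise, averaging 61.3 TPM under water and 27.0 TPM in air. BAM3 averaged 34.4 TPM under water and 39.5 TPM in air, and BAM4 averaged 27.1 TPM under water and 23.9 TPM in air. BAM1 supplied 64.1% ± 2.78 of the combined BAM1 and BAM3 TPM under water and 40.6% ± 0.961 in air (SD, n = 3 each).

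Ratios of counts between genes in the same library do not depend on how libraries are scaled to each other, so 6 pairs were compared this way. BAM1 counts divided by BAM3 counts gave 1.89, 2.40 and 2.15 under water and 0.787, 0.852 and 0.817 in air. BAM1 thus had more counts than BAM3 in every submerged library and fewer in every air library. The mean log2 ratio differed by 1.39 ± 0.11 (SE), with p = 0.1 by an exact two-sided permutation test, the smallest value that 3 against 3 libraries allow, and 0.12 after Benjamini-Hochberg adjustment over the 6 pairs. No pair could therefore pass 0.05. BAM4 over BAM3 was 0.709, 0.826 and 0.743 under water and 0.561, 0.596 and 0.586 in air, a log2 difference of 0.38 ± 0.07 (SE). AMY3 over BAM3 was 4.26, 5.17 and 4.68 under water and 3.91, 3.91 and 4.25 in air, so the lowest submerged and the highest air ratio were nearly equal.

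DPE1 over DPE2, the plastid and cytosolic enzymes of chain transfer, was 0.379, 0.427 and 0.405 under water and 0.557, 0.595 and 0.534 in air. This log2 ratio differed by -0.48 ± 0.07 (SE), and the groups did not overlap. SEX1 over SEX4, the dikinase and the phosphatase, was 9.07, 9.14 and 8.70 under water and 8.60, 8.53 and 7.46 in air, a log2 difference of 0.13 ± 0.07 (SE) that was 0.066 without air replicate 3. The 4 pairs given after BAM1 over BAM3 each had the same p of 0.1 in the exact permutation test, and 0.12 adjusted. MEX1 over DPE2 was 0.264, 0.266 and 0.236 under water and 0.262, 0.263 and 0.237 in air. The groups overlapped, and the log2 difference was 0.0062 ± 0.075 (SE, p = 0.8 by the exact permutation test and 0.8 adjusted).

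**Figure D3:**
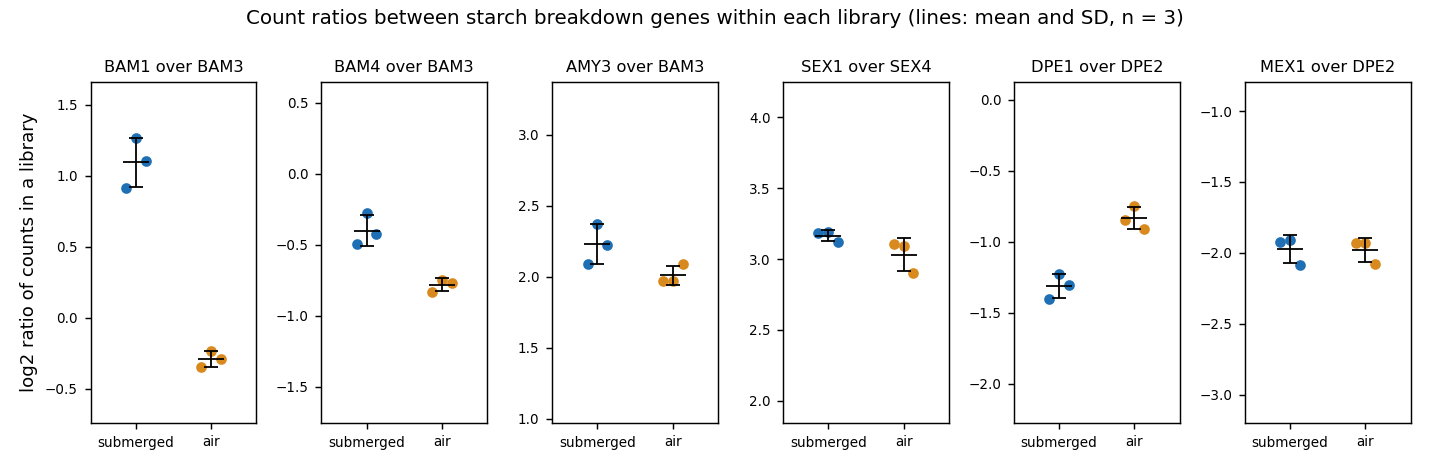
Log2 ratio of counts between gene pairs within each library (points; lines are means and SD, n = 3; each panel spans the same number of log2 units). BAM1 over BAM3 lies between 0.92 and 1.26 under water and between -0.35 and -0.23 in air, while MEX1 over DPE2 overlaps between the groups.

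The promoters of the genes were searched for sequence elements tied to daily rhythm, light and stress, since most of the members fell together. Windows ran from 250 bases before the annotated gene start to 50 bases after it, in the TAIR10.1 assembly with the RefSeq annotation. The deposited tables hold no coordinates, and all positions given here are in TAIR10.1. The evening element AAAATATCT, known from clock-controlled genes, was found on either strand in SEX1, ISA3 and DPE1, which is 3 of the 10 windows, against 2.82% of 27443 windows of protein-coding genes. The G-box CACGTG, which reads the same on both strands and is bound by bHLH and bZIP factors, was found in ISA3 and in DPE1, against 7.68% of all windows. The CAMTA element CGCGTT was found in AMY3 alone of the 10, against 3.40% of windows. The I-box GATAAG was in none of them, against 14.6%. No found element overlapped another. These matches describe the letters present and were not tested for binding. None of the 4 elements was found in BAM1, BAM3, BAM4, SEX4, DPE2 or MEX1. The windows below are those of the 3 genes that held the evening element and of BAM1. They are written 5′ to 3′ on the gene's strand, with found elements in capitals.
DPE1, chr5:25928830-25929129, minus strand: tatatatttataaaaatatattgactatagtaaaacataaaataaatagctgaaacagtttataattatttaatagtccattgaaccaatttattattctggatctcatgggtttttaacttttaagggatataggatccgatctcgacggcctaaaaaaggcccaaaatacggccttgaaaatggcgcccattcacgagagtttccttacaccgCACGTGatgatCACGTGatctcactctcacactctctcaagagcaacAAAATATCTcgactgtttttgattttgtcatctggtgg
ISA3, chr4:5783659-5783958, plus strand: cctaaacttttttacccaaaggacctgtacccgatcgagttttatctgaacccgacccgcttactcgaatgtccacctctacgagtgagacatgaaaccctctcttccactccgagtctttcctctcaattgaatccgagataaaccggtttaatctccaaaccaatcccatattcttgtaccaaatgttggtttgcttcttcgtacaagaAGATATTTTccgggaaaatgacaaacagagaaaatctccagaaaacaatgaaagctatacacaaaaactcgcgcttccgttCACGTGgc
SEX1, chr1:3590879-3591178, minus strand: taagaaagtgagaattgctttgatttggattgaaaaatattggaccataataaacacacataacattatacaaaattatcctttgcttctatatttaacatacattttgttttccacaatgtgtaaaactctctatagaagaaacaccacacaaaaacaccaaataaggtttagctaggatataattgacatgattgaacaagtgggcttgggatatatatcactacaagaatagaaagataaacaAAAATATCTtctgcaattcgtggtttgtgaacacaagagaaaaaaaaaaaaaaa
BAM1, chr3:8640931-8641230, plus strand: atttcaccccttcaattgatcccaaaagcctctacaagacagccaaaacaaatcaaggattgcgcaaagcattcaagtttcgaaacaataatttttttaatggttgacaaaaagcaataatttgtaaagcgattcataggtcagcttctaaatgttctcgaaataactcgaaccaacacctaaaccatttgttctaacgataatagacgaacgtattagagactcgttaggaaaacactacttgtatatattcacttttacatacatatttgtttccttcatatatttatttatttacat

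In DPE1, the gene with the largest fall, a pair of G-boxes began 35 and 24 bases before the gene start, and the evening element lay just inside it. In ISA3 the evening element began 39 bases before the gene start, on the opposite strand, and the G-box lay inside the gene. In SEX1 the evening element began 4 bases before the gene start. The members without either element also included genes that fell, namely SEX4, DPE2, MEX1 and BAM3.

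Among other genes of starch breakdown and glucan handling, more were called lower than higher. Of 18 in the list, 16 passed the count filter, with 2 called higher (background 28.8%), 7 called lower (background 26.1%) and 7 not called, and the median log2 fold change was -0.14. AMY1 and BAM5 were not tested, with at most 5 and 10 counts in any library. BAM9, a beta-amylase-like gene of the same family as BAM1, had 151, 170 and 183 CPM under water and 31.7, 30.5 and 30.7 CPM in air. It showed the largest rise of all starch genes examined, with a log2 fold change of 2.44 ± 0.08 (SE, adjusted p = 5.87e-11 by edgeR). AMY2, an alpha-amylase gene with low counts, stood at 0.64 ± 0.22 (SE, adjusted p = 0.0245 by edgeR). That call was lost with upper quartile scaling and without air replicate 1, air replicate 2 or submerged replicate 3, where log2 fold changes were 0.52, 0.57, 0.49 and 0.47.

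The genes that fell in this list work beside the 10. PWD (AT5G26570), a dikinase that acts on starch already phosphorylated by SEX1, had 110, 106 and 107 CPM under water and 221, 210.0 and 234 CPM in air, and fell by 1.04 on the log2 scale (SE 0.06, adjusted p = 8.12e-09 by edgeR). PHS1, the plastid glucan phosphorylase, fell by 1.28 (SE 0.06) and PHS2, its cytosolic counterpart, by 0.59 (SE 0.06). PGLCT, the plastid glucose transporter, fell by 0.86 (SE 0.06), the limit dextrinase LDA by 0.70 (SE 0.07) and the phosphatase LSF2 by 0.53 (SE 0.07). LSF1, a phosphatase-like protein of starch breakdown, stood at -0.22 ± 0.08 (SE, adjusted p = 0.0278 by edgeR), a call lost under 5 of 16 alternatives. Those were DESeq2 and the fits without air replicate 2, air replicate 3, submerged replicate 2 or submerged replicate 3, with values from -0.24 to -0.18.

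Genes of starch synthesis were either lower or not called. Of 20 tested, 10 were called lower (background 26.1%) and 0 higher (background 28.8%). DESeq2 also called 10 lower (background 22.9%) and 0 higher (background 24.6%). The median log2 fold change was -0.26, against -0.62 for the 10 breakdown genes and -0.14 for the other breakdown and glucan-handling genes. The largest falls were in ISA1 (-0.89 ± 0.06, SE) and ISA2 (-0.76 ± 0.06, SE), subunits of the debranching complex that shapes new granules, and in the starch synthase SS3 (-0.80 ± 0.05, SE). GBSS1, the granule-bound synthase, stood at -0.19 ± 0.08 (SE, adjusted p = 0.0548 by edgeR) and APL3, a subunit of ADP-glucose pyrophosphorylase, at -0.34 ± 0.16 (SE, adjusted p = 0.0954 by edgeR). With upper quartile scaling, which moved the median of all genes by -0.12, 16 of the 20 were called lower, GBSS1 and APL3 among them, against a background of 34.9%. GBSS1 was also called lower with DESeq2 size factors, library size alone, the filter of 5 CPM in 3 libraries and without submerged replicate 3, which made 5 of 16 alternatives. Its log2 fold change was -0.12 without submerged replicate 2, and that of APL3 was -0.21 without air replicate 3. The log2 fold changes of the 20 ran from -0.89 to 0.045.

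In the cytosol, where glucose and hexose phosphates from starch are used, 4 of 11 genes of hexose and sucrose synthesis were called higher (background 28.8%) and 5 lower (background 26.1%), with a median log2 fold change of 0.017. UGP2 (AT5G17310, 0.59 ± 0.06, SE) and UGP1 (AT3G03250, 0.54 ± 0.07, SE), close relatives that make UDP-glucose, rose, and because the counting of shared reads is not stated, their separate values are uncertain. The hexokinase gene HXK2 fell by 0.72 on the log2 scale (SE 0.09), while HXK1 rose by 0.26 (SE 0.08, adjusted p = 0.0128 by edgeR). The HXK1 call was lost with upper quartile scaling (0.14, adjusted p = 0.165 by edgeR) and without air replicate 3 (0.19, adjusted p = 0.0625 by edgeR). SPS2F and SPS3F, sucrose phosphate synthase genes with low counts, had adjusted p-values of 0.0474 and 0.0488 by edgeR and lost their calls under 11 of 16 and 9 of 15 alternatives. SPP2, a sucrose phosphatase gene, fell by 0.25 (SE 0.06).

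**Figure D4:**
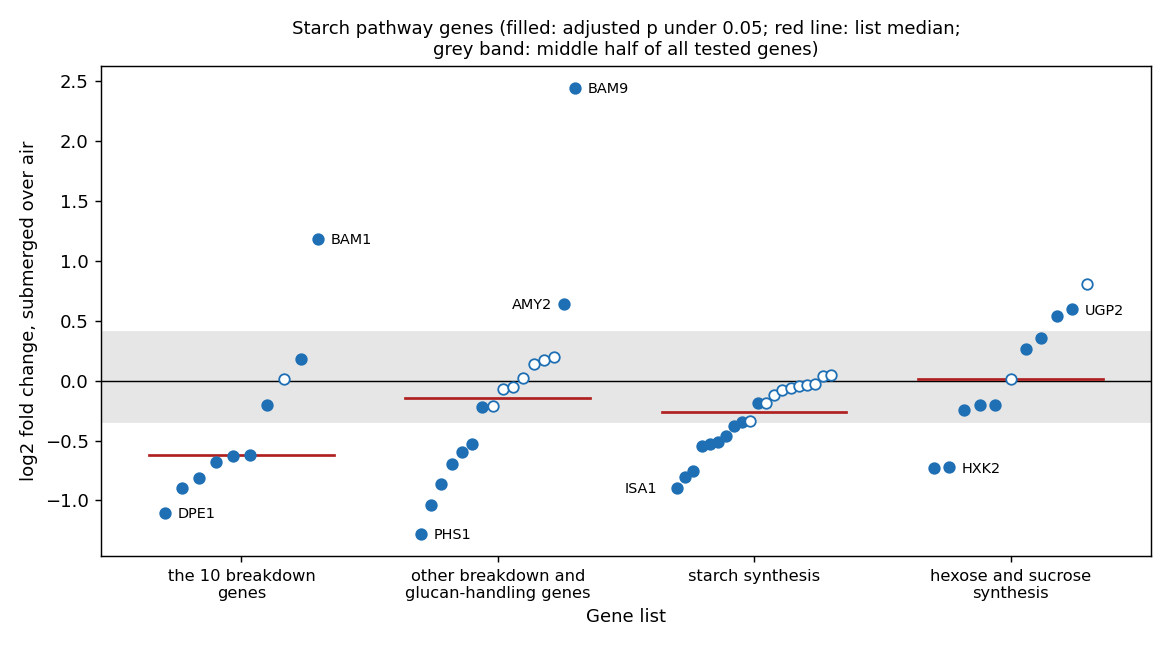
Log2 fold change, submerged over air, of each tested gene in the 10 breakdown genes and the 3 related lists (points; filled where adjusted p was under 0.05; red lines are list medians). The 10 breakdown genes have the lowest median at -0.62, while that of the other breakdown and glucan-handling genes is -0.14. BAM9 at 2.44 and BAM1 at 1.18 are the highest points.

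The marker genes gave the following values beside these results. Of the 15 root markers 1, NRT2.1, was called higher (background 28.8%), 0 were lower (background 26.1%) and 14 were not called. Their median log2 fold change was 0.083. NRT2.1 had only 28, 12 and 18 counts under water and 8, 6 and 6 in air. Standard errors of the root markers ran from 0.08 for SCR to 0.51 for CASP4, so changes in many of them could have been missed. Of the 6 leaf photosynthesis markers 4 were called lower (background 26.1%) and 0 higher (background 28.8%), with changes from -0.38 to -0.11 and a median of -0.18. Of the 10 starch breakdown genes, 6 had changes from -1.10 to -0.62. BAM3 stood at -0.20, AMY3 at 0.013, BAM4 at 0.18 and BAM1 at 1.18. The part of tissue composition in the starch results was not tested.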

How the data were processed

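RNA levels were measured in 3 submerged and 3 air libraries of whole seedlings. RNA was extracted with Trizol and a company built the libraries, per the labels' protocols, and, per the submitters' processing notes, TAIR10 was the genome build. The sources used here do not give the aligner, the counting program or the strand setting. Raw counts and TPM per gene were deposited for each library, per the file headers. The deposited TPM was used only to compare levels between genes. The authors' deposited table of log2 fold changes and false discovery rates was used where named.

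Counts were fitted with edgeR 4.0.16 in R 4.3.3 (TMM factors, filterByExpr with a minimum count of 10 and a total of 15, quasi-likelihood F test, Benjamini-Hochberg over 19495 genes). Fold changes are submerged over air. Alternatives used DESeq2 1.42.0, limma 3.58.1 voom, other scalings and filters, halved counts, a replicate block and each library left out. Among counts of 1 to 20, 85.8% to 87.4% were even, so read pairs may have been counted as 2. Replicates of a group differed by 4.48 to 9.12 times sampling noise on the counts as deposited, and 2.24 to 4.56 times if halved. No library of a group thus repeated the reads of another. Whether they came from separate seedlings or RNA is not shown by this. Exact tests used scipy 1.17.1. The edgeR procedure was tested on simulated data.

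The members and lists were chosen with earlier results of these data known. All 10 members are named, and from each related list up to 3 genes with the largest rise and 3 with the largest fall among those called, with PWD, LSF1, PHS1, PHS2, LDA, GBSS1, APL3 and BAM9 always. AMY1, BAM5, LSF2 and HXK1 were added after their values were seen. Genes were named from RefSeq where the deposited name differed.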

Additional observations from a re-analysis of the deposited data

How the results depend on the processing

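BAM1 and the 6 genes SEX1, SEX4, ISA3, DPE1, DPE2 and MEX1 kept their direction and stayed called under all 16 alternatives, with log2 fold changes from 1.06 to 1.24 for BAM1 and from -1.23 to -0.58 for the other 6. The count of members called higher was 1 in place of 2 with DESeq2 size factors, upper quartile factors, library size alone, no filter on low counts, DESeq2, the replicate block and the 1.5-fold rule, and 1 to 2 when a library was left out; BAM4 was the gene lost in each. The count called lower was 6 to 7. Over all genes, the 16 alternative fits called 4465 to 5685 higher and 4456 to 6813 lower. With upper quartile factors the members' median was -0.74, and starch synthesis genes called lower were 16 (background 34.9%). Genes called higher were then 1 in the other breakdown list and 2 in the hexose and sucrose list (background 22.9%). With DESeq2, hexose and sucrose genes called lower were 3 (background 22.9%) in place of 5 (background 26.1%). With a library left out, other breakdown genes called higher were 1 to 3. Hexose and sucrose genes called higher were 2 to 4 and called lower 2 to 4. Those fits also called fewer genes over the whole data, 5134 to 5536 higher and 4456 to 4930 lower. The main fit called 5624 higher and 5094 lower. AMY3 turned to -0.11 with upper quartile factors, -0.027 with library size alone and -0.037 to 0.071 with a library left out. The log2 ratio of MEX1 over DPE2 ran from -0.042 to 0.063 with a library left out; the other 5 ratios kept their sign in all 8 alternatives. The causes were not tested.

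Same-numbered libraries of the groups deviated with correlations of -0.04, 0.04 and 0.04, within the -0.12 to 0.11 of the other pairs. No pairing by number was seen, but 3 libraries per group are too few to settle it. With the replicate block 5470 genes were called higher and 4877 lower, in place of 5624 and 5094 without it, and BAM4 stood at an adjusted p of 0.0511 by edgeR. Only 3 libraries per group limit the exact tests to p = 0.1, and to 0.25 for the sign-flip test with the block. Depth did not limit the 10 genes, which had at least 500.0 counts in every library.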
